A study of Saccharomyces cerevisiae with 2 samples.

Results

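The last 1041 nucleotides of the yeast 25S rRNA, from 2356 to 3396, were examined for contacts with the ribosome assembly factor Puf6. They were taken by position from the table of the 25S alone, make up 30.7% of its 3396 nucleotides, and hold about domains V and VI of the RNA. In the R64 genome they lie in the 25S gene RDN25-1 on the minus strand of chromosome XII, from 451786 to 452826, and the bases of the table differed from the reference at 0 positions. The other annotated copy, RDN25-2, has the same sequence over this stretch, so the copies of the rDNA cannot be told apart.

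The method was CRAC (cross-linking and analysis of cDNA), in which ultraviolet light links a tagged protein to the RNA it touches in living cells and fragments of that RNA are then sequenced as cDNAs. A base skipped by the reverse transcriptase at the linked nucleotide appears as a deletion, which marks a contact more closely than the fragment does. Saccharomyces cerevisiae carried Puf6 with a C-terminal HTP tag (His6, a TEV protease site and ProtA) at its own genomic locus, and was irradiated during growth in YPD. There was 1 condition, described as 2 replicates. The paper states that both were analysed with essentially the same outcome and that its figure shows the better covered one. The tables hold 1 library whose replicate is not named. The spread between replicates therefore cannot be given, every interval and p covers counting error in this library only, and libraries of untagged cells were not analysed here.

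In the folded ribosome, domain V forms the peptidyl transferase centre, where peptide bonds are made. Its P loop and A loop pair with the CCA ends of the tRNAs in the P and A sites. Domain VI carries the sarcin-ricin loop, which the GTPases of translation contact and which the toxins sarcin and ricin attack, and ends with helix 99 (H99) at the 3′ end. H99 often gives signal in CRAC of other proteins too, and how much of the signal here is of that kind was not tested.

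The signal of the Puf6 library in this stretch was concentrated at its 3′ end, where the H99 signal that the paper marks as non-specific lies. Whether the deletions there mark contacts of Puf6 was not tested. The sequence of the last 100 nucleotides is shown because most deletions of the stretch lay in it. The capitals are the 4 nucleotides whose deletion rate passed the test described below, UUG at 3351 to 3353 and U at 3380, and the run covers 3297 to 3396, written 5′ to 3′.
last nucleotides: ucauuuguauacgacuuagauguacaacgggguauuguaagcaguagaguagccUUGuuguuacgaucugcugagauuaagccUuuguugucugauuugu

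For comparison, 4 functional sites of the stretch are shown with 15 nucleotides on each side, which had few hits. The capital is the nucleotide each was centred on: G2619 in the P loop, A2820, the adenosine of the catalytic centre, U2921 in the A loop and A3027 in the sarcin-ricin loop. The A loop was placed by its methylated pair U2921 and G2922, because the letters first searched for it gave 0 matches.
P loop: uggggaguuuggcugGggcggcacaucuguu
catalytic adenosine: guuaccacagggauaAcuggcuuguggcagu
A loop: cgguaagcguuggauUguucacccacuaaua
sarcin-ricin loop: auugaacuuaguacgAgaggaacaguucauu

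The hits of a nucleotide are the sense cDNAs that span it. They summed to 47632 over the stretch, or 15.2% of all 25S hits. Neighbouring nucleotides share cDNAs, so a sum of hits is not a number of cDNAs. A nucleotide had a mean of 45.8 and a median of 13 hits, between 3 and 383. The mean was far above the median because the last 100 nucleotides held 59.5% of the hits of the stretch. There the mean was 283 and the median 286 hits, and the lowest nucleotide had 73. The other 941 nucleotides, 2356 to 3296, had a mean of 20.5 and a median of 13 hits, between 3 and 130. Nucleotides G1 to C1869, at the other end of the RNA, had a median of 12 hits. The stretch between them, from C1870 to G2355, which holds H68, had a mean of 488 hits, and its lowest nucleotide had 11. Apart from its 3′ end, the stretch thus had a median near that of the first part of the 25S and a higher mean.

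**Figure D1:**
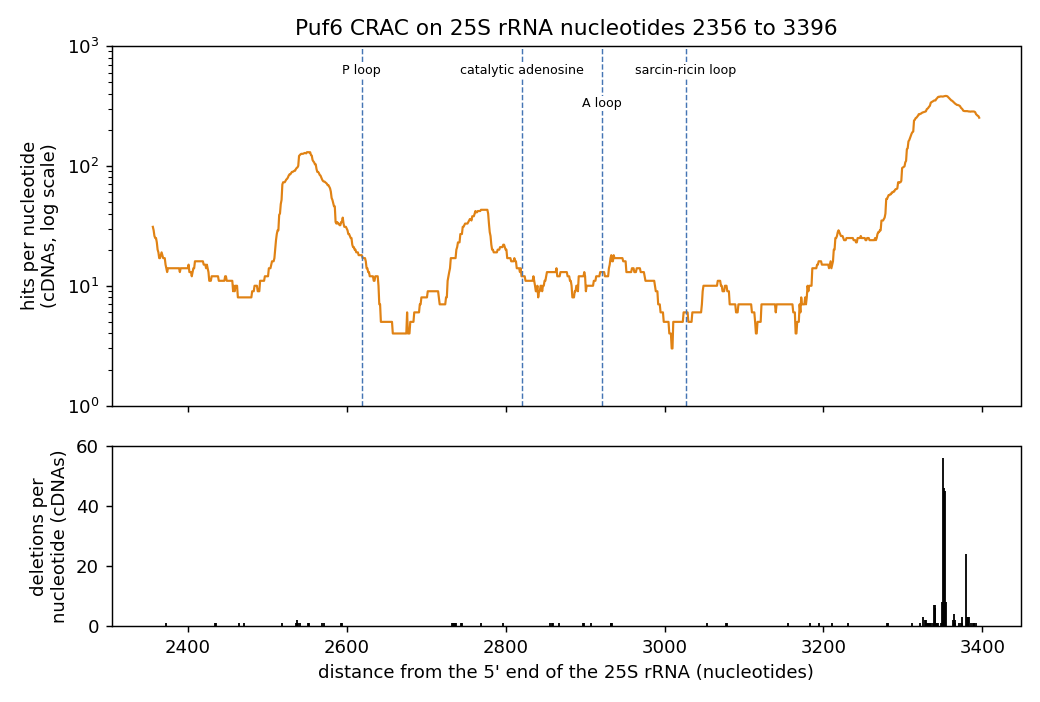
Hits per nucleotide (upper panel, log scale) and deletions per nucleotide (lower panel) along nucleotides 2356 to 3396 of the 25S rRNA in 1 Puf6 library, with dashed lines at the 4 functional sites. The hits reach 383 near the 3′ end and 130 at U2550, and only the last 100 nucleotides hold tall columns of deletions.

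Consecutive windows of 100 nucleotides showed the same distribution. The lowest mean was 7.50 hits, in the window from 3056. The highest was 307 hits, in the short last window from 3356, and the next was 175 hits, in the window from 3256. Between them the window from 2456 had 46.7 hits and that from 2756 had 21.1. In the table of the 35S pre-rRNA, counted separately from the same library, the window from 3056 had a mean of 4.68 hits and the last window 263. The 35S table also stops at 5000 cDNAs but covers more RNA. Its hits were lower at 959 of the 1041 nucleotides and equal at the other 82. The ratio of the 35S level to the 25S level was 0.617 in the window from 3156, 0.624 in that from 3056 and at most 0.901, in that from 2856. Both tables come from the same cells and cDNAs and are not replicates.

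**Figure D2:**
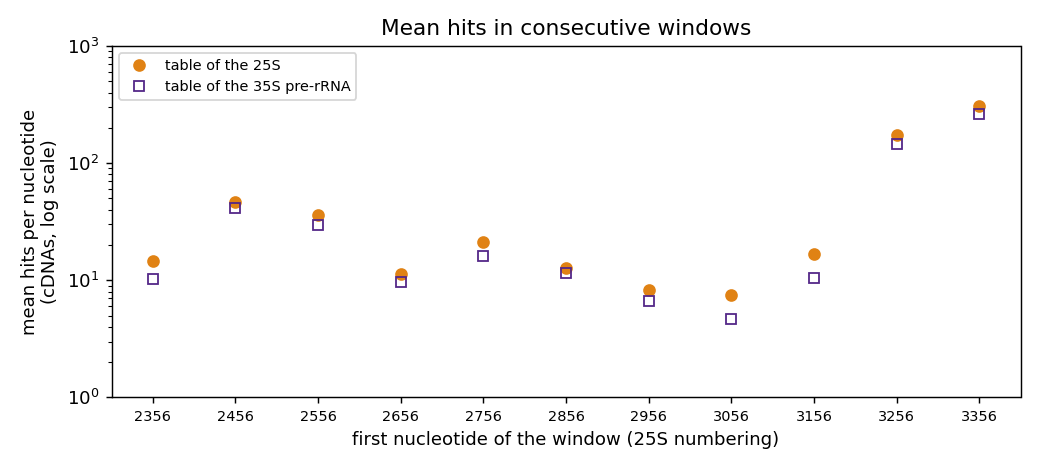
Mean hits per nucleotide (log scale) in consecutive windows of 100 nucleotides, the last of them 41 nucleotides long, from the 25S table (filled circles) and the 35S table (open squares) of the same library. Both tables place the lowest window at 3056, with 7.50 and 4.68 hits, and the highest at the 3′ end.

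Deletions were more concentrated than hits. The stretch held 305 deletions, or 15.3% of those on the 25S, and 258 of them (84.6%) lay in the last 100 nucleotides. The deletion rate, deletions divided by hits, was 0.910% there (Clopper-Pearson 95% interval 0.803 to 1.03%) and 0.244% (0.179 to 0.324%) in the rest of the stretch. The odds of a deletion were 3.76 times higher in the last 100 nucleotides (two-sided Fisher's exact test, p = 2.41e-21). When the 15 nucleotides of the 2 UUG repeats described below, which held 165 deletions, were left out, the odds ratio became 1.64 (exact test, p = 0.0063). The 93 deletions left in the last 100 nucleotides included 24 at U3380, next to the second repeat. The odds ratio without U3380 was not computed, so 1.64 does not show an excess apart from that nucleotide. With each run of neighbouring deleted nucleotides given only the count of its most deleted nucleotide, the odds ratio was 2.39. With nucleotides deleted alone included, there were 13 such runs in the last 100 nucleotides and 29 in the other 941. Of these, 7 and 11 were longer than 1 nucleotide. For the deletions as for the hits, this test takes neighbouring nucleotides as independent, so its p overstates the precision.

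A deletion was seen at 88 nucleotides of the stretch, 42 of them in the last 100. Of the 42, 20 had at least 2 deletions. Of the 46 deleted nucleotides elsewhere, 45 had 1 deletion each, and U2537 had 2 in 96 hits. The rate of 0.244% over nucleotides 2356 to 3296 lay below the 0.356% (0.290 to 0.433%) of nucleotides G1 to C1869, with an odds ratio of 0.684 (two-sided Fisher's exact test, p = 0.0352). This difference missed the threshold with only nucleotides of at least 10 hits (exact test, p = 0.0617) and without the most deleted nucleotide of each set (p = 0.0567).

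The deletion rate of each nucleotide with at least 10 hits was then compared with that of all other 25S nucleotides by Fisher's exact test with Benjamini-Hochberg adjustment. In the whole 25S, 20 of 2413 nucleotides, or 0.829%, had a higher rate at an adjusted p under 0.05. In the stretch 4 of 751 did (0.533%), a share not above this background. All 4 lay in the last 100 nucleotides, where 4 of 100 passed (4%), against 0 of the other 651 tested and 2 of 1176 in nucleotides G1 to C1869. In the densely covered nucleotides C1870 to G2355, 14 of 486 passed (2.88%), and 0.671% of all hits were deleted. At an unadjusted p under 0.05 with a higher rate the count outside the last 100 nucleotides was also 0 of 651. The remaining 290 nucleotides had under 10 hits and were not tested. Depth limited the test away from the 3′ end: at the median of 13 hits a nucleotide needed 3 deletions, a rate of 23.1%, to pass, and at 130 hits it needed 6, or 4.62%.

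The most deleted nucleotides were 3 neighbours that spell UUG. U3351, at 451831 on chromosome XII, had 56 deletions in 379 hits, or 14.8% (exact 95% interval 11.4 to 18.8%), an odds ratio of 27.8 to the other 25S nucleotides (Fisher's exact test, adjusted p = 4.46e-54). U3352 had 46 deletions in 381 hits, or 12.1% (8.98 to 15.8%, exact test, adjusted p = 2.73e-40). G3353 had 45 in 382 hits, or 11.8% (8.72 to 15.4%, exact test, adjusted p = 4.47e-39). Neighbouring nucleotides share cDNAs, so these separate intervals do not measure the differences between the 3 rates, and no order among them is given. U3380, at 451802 and nearer to the 3′ end, stood alone with 24 deletions in 286 hits, or 8.39% (5.45 to 12.2%, exact test, adjusted p = 4.74e-17). Its neighbours U3381, U3382 and G3383 had 3 deletions each. In the 35S table U3351 had 47 deletions in 322 hits, U3352 37 in 324, G3353 37 in 325 and U3380 22 in 245, all also past the test there.

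The nucleotides next in number of deletions did not pass. C3349 had 8 in 379 hits (2.11%, exact test, adjusted p = 0.114) and U3354 had 8 in 383 (2.09%, exact test, adjusted p = 0.118). A3339, G3340 and U3341, a second group of 3 neighbours, had 7, 6 and 7 deletions in 350 to 351 hits, with adjusted p from 0.229 to 0.610 by the same exact test. C3364, the last of the 10 most deleted, had 4 in 340 hits (1.18%). On C3349 the 2 tables differed: in the 35S table its 8 deletions fell in 320 hits and passed, with an adjusted p of 0.0398 by the exact test.

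**Figure D3:**
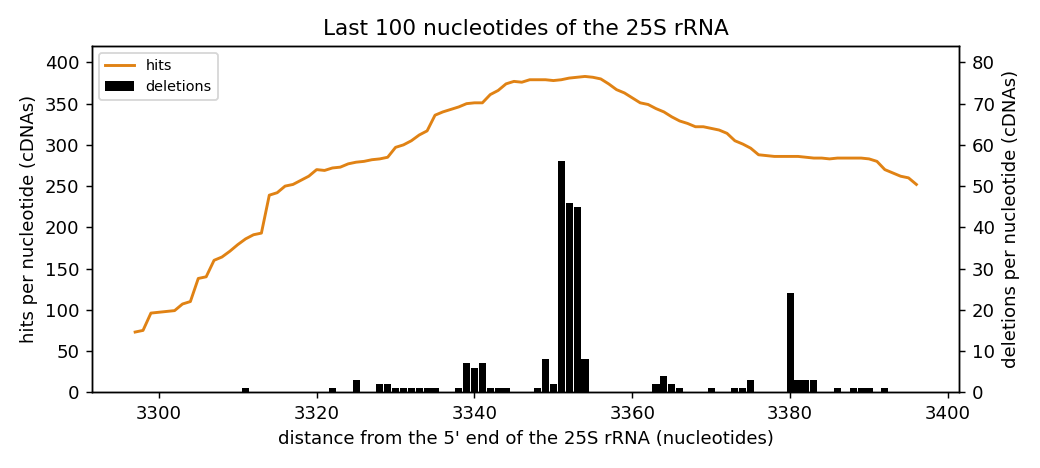
Hits (line, left axis) and deletions (bars, right axis, drawn on a different scale) at each of the last 100 nucleotides of the 25S rRNA in 1 library. The hits form a broad hill with its top at U3354, while the deletions stand in a narrow group of 45 to 56 at 3351 to 3353 and a single column of 24 at 3380.

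The sequence limits how exactly these deletions can be placed. The UUG of 3351 to 3353 opens the 8-nucleotide repeat uuguuguu, which ends at 3358. Removing any of 6 windows of 3 nucleotides in it leaves the same sequence, so an alignment cannot say which 3 were skipped. Only 6 of the 1039 windows of 3 nucleotides in the stretch (0.577%) have that many equivalents, and all 6 belong to this repeat. Whether the deletions at U3351, U3352 and G3353 came from the same cDNAs is not recorded in the tables and was not tested. The second repeat, uuguugu at 3381 to 3387, allows 5 equivalent windows and had 3 deletions at each of its first 3 nucleotides. U3380 lies just before it in the run of 3 uridines from 3380 to 3382, within which the skipped one cannot be placed. The AGU of 3339 to 3341 can be placed in 3 ways within aguag, and 16.0% of the windows of the stretch have at least 3 equivalents.

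Proteins of the PUF family are known for reading short uridine-rich RNA motifs that contain UGU. UUGU is 1 of the letter strings found in both repeats. The paper describes Puf6 as the most diverged member in yeast, and whether it reads such a motif was not tested here. UUGU, sought on the RNA strand only, occurs at 12 places in the stretch, 5 outside and 7 inside the last 100 nucleotides, with 4 of the 7 overlapping in pairs, at U3354 and at U3384. The whole 25S holds 25, and 40.1% of its 3297 windows of 100 nucleotides have at least 1, but none other than the last window has as many as 7. The 5 sites outside, at 11 to 33 hits, held 3 deletions in all. Inside, the site at 3351 held 155 deletions, those at 3354, 3381 and 3331 held 8, 9 and 4, that at 3384 held 1, and those at 3301 and 3393 held 0 (U3354 is counted at 2 sites). If 3 nucleotides were skipped together within a repeat, they cannot be placed, and the split between the sites at 3351 and 3354 is that of the alignment. If bases were skipped singly, G3353 has only 1 placement. Which of these happened was not tested. The 24 deletions at U3380 may belong to the site at 3381. Outside the repeats, no UUGU site held more than 4 deletions, at depths that differ. UGUA, which is in fewer such windows, had 1 site outside and 3 inside and held 4 deletions, all at 1 site. That site, at 3332, overlaps the UUGU site at 3331, so most of its deletions are counted at both. GAAA, which is in 55.0% of them, occurred at 6 sites of the stretch, none in the last 100 nucleotides, with 4 to 32 hits and 1 deletion. A match of letters is a description and not a binding site.

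Uridine had the highest deletion rate of the 4 bases. Over the stretch 180 of 15714 hits at U were deleted, or 1.15%, against 0.392% at the other bases, an odds ratio of 2.95 (two-sided Fisher's exact test, p = 1.59e-20, or 1.91e-19 adjusted over 12 tests of a base). A had 0.248% (adjusted p = 2.23e-10 by the exact test against the other bases) and C 0.339% (0.000258), both lower than the rest, and G had 0.553% (0.229). The ratio at U depended on how the large run was counted. With each run of neighbouring deleted nucleotides given only its highest count, it was 5.02 when that count stayed at the most deleted nucleotide. It was 1.02 (exact test, p = 0.927) when the count was moved to the first nucleotide, since that of U3351 then stands at G3348. Without the UUG repeats the ratio at U was 2.15, with 64 deletions at U, 24 of them at U3380. The ratio without U3380 as well was not computed.

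In the last 100 nucleotides alone, U had 1.54% (1.32 to 1.80%) and the other bases together 0.545% (exact test, adjusted p = 5.89e-16). G had 0.866% there, of which G3353 gave 45 of 65 deletions. Outside the last 100, U had 20 deletions in 5351 hits, or 0.374% (0.228 to 0.577%), against 0.194% (p = 0.0325 by the exact test, adjusted p = 0.0488). The direction held in the 35S table, with an odds ratio of 2.39 (exact test, p = 0.0219), but with at least 10 hits the ratio was 1.62 and the test was missed (p = 0.130). G was lowest there, with 5 deletions in 5143 hits, or 0.0972% (exact test, adjusted p = 0.0210). Over thinly covered RNA with 47 deletions in all, these differences rest on few events.

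**Figure D4:**
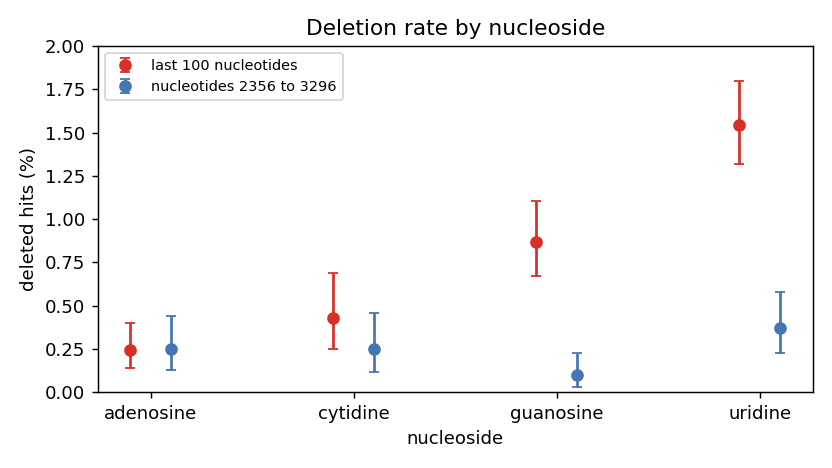
Deletion rate (percent of hits, with Clopper-Pearson 95% intervals for counting error) at each nucleoside in the last 100 nucleotides and in nucleotides 2356 to 3296 of 1 library. Uridine is highest in both, at 1.54% and 0.374%, and guanosine has the largest ratio between them, at 0.866% and 0.0972%.

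The hits drew a broad hill at the 3′ end. They rose from 73 at U3297 to 383 at U3354, 3 nucleotides after the most deleted one, and fell to 252 at U3396, the last nucleotide of the RNA, still 65.8% of the maximum. At least 50% of the maximum was kept over 84 nucleotides, from 3313 to 3396. U3304, with 110 hits, lay on its flank and was not a peak of its own, and A2356, with 31 hits, lay at the edge next to the densely covered part of the RNA.

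The second peak, at U2550 with 130 hits, is shown for contrast, since its hits came with few deletions. It kept at least 50% of its maximum from 2519 to 2579, or 452603 to 452663 on chromosome XII, and the capitals below are its 9 nucleotides with a deletion.
second peak: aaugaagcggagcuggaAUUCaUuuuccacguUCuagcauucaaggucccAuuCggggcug

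These 61 nucleotides held 5853 hits and 10 deletions, a rate of 0.171% (Clopper-Pearson 95% interval 0.0820 to 0.314%), whose interval lies below the 0.978% (0.863 to 1.11%) over the 84 nucleotides around U3354. The 4 neighbours from A2536 to C2539, AUUC, held 5 of the 10, among them the 2 at U2537. At 130 hits, 6 deletions at 1 nucleotide would have been called, and U2550 itself had 0. The third peak, at A2769 with 43 hits, kept at least 50% of its maximum from 2740 to 2782 and held 3 deletions in 1534 hits, or 0.196% (0.0403 to 0.570%). The intervals of both peaks include the 0.244% over nucleotides 2356 to 3296, of which they are part.

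The profile rose in steps at particular letters. The 10 largest rises from one nucleotide to the next were all at an A that follows U or C, although such an A makes up 118 of 1040 nucleotides (11.3%). The largest was at A3314, where the hits went from 193 to 239. A3305 followed with a rise from 110 to 138, and A2540, in the second peak, with one from 100 to 121. In the last 100 nucleotides, 13 such positions gave 174 of the summed rise of 314 hits (55.4%), and 11 of the 13 rose, against 41 of the other 87. In nucleotides 2356 to 3296, 105 such positions gave 153 of a summed rise of 330 (46.4%). A rise marks a nucleotide where more cDNAs start than stop. The bound RNA was trimmed with RNase in this protocol, and the part of that digestion in the steps was not tested. The grouping by these letters was chosen after the values were seen, so it is a description. Falls were smaller and had no such common letter, with the largest 12 hits at G2586.

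**Figure D5:**
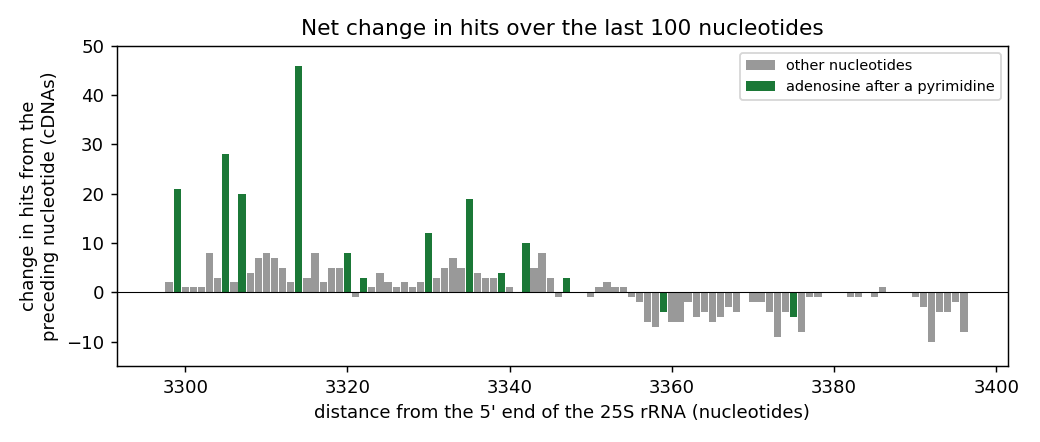
Change in hits from the preceding nucleotide over the last 100 nucleotides of the 25S rRNA in 1 library, with adenosines that follow a pyrimidine in green and all others in grey. The tallest bars, 46 at A3314 and 28 at A3305, are green, and after U3354 most bars lie below 0.

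The functional sites of the ribosome were thinly covered. The P loop, around G2619, had a mean of 17.3 hits over the 31 nucleotides shown above (11 to 26) and 0 deletions. Around the catalytic A2820 the mean was 13.3 hits (11 to 17), with 0 deletions. The A loop around U2921 had a mean of 12.7 hits (10 to 18) and 4 deletions, 1 each at G2907, U2932, A2933 and A2934, or 1.01% of 395 hits (Clopper-Pearson 95% interval 0.277 to 2.57%). The last 3 are neighbours, and whether they came from 1 cDNA is not recorded. The sarcin-ricin loop around A3027 was lowest, with a mean of 5.45 hits (5 to 6) and 0 deletions. The median of the 911 windows of this length in nucleotides 2356 to 3296 was 12.3 hits (4.35 to 114), and the P loop lay above 70.6% of them, A2820 above 55.0%, the A loop above 53.0% and the sarcin-ricin loop above 5.71%. A count of 0 allows a deletion rate of up to 0.560% over the window of the P loop, 0.728% over that of A2820 and 1.78% over that of the sarcin-ricin loop. These limits are 3 counts over the hits. The upper ends of the Clopper-Pearson intervals were 0.686%, 0.891% and 2.16%. At single nucleotides, with 12 hits at A2820 and 6 at A3027, deletions short of a large share of the cDNAs were not detectable at this depth.

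Many nucleotides of domain V carry modifications that are added while the ribosome is built, mainly methyl groups on the ribose, placed with guide snoRNAs, and pseudouridines. A list of 26 modified positions, from textbook knowledge, was compared with the table, and all 26 had the matching base. They had 7 to 21 hits each. Together they held 1 deletion in 364 hits, or 0.275% (Clopper-Pearson 95% interval 0.00696 to 1.52%), against 46 in 18919, or 0.243%, at the unmodified nucleotides from 2356 to 3296, with an odds ratio of 1.13 (two-sided Fisher's exact test, p = 0.592). The interval is too wide to show whether the rates differ. The 15 ribose-methylated nucleotides had 0 deletions in 221 hits, which allows a rate of up to 1.36%. The single deletion was at pseudouridine 2735, inside the longest run of deleted neighbours outside the last 100 nucleotides, 5 from A2733 to C2737 with 1 deletion each in 17 hits. In the 35S table the same 5 nucleotides had 1 deletion each in 15 hits.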

How the data were processed

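Growing cells with HTP-tagged Puf6 were cross-linked and 1 library, whose header counts 1316148 cDNAs of which 241334 were mapped, was analysed. The authors mapped reads to R64 with NovoAlign and ran pyPileup of the pyCRAC suite. Coverage, the signal deposited by the authors as hits, is how many sense cDNAs span a nucleotide and is not scaled to depth. Deletion counts, also deposited by the authors, give the cDNAs in which a nucleotide was skipped. Counting stopped at 5000 cDNAs for the 25S and for the 35S, the way these were chosen was not given in the sources used here, and shares describe the cDNAs counted. The table of the 5S was not used.

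Deletion rates were divided by hits, with Clopper-Pearson 95% intervals. Every 25S nucleotide with at least 10 hits was compared with all others by two-sided Fisher's exact test with Benjamini-Hochberg adjustment and called at an adjusted p under 0.05. The test was checked on simulated data. A limit for 0 deletions is 3 counts over the hits. Intervals and limits cover counting error only.

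Nucleotides named are the 10 most deleted, those called, the 5 highest points of hits at least 50 nucleotides apart, the extreme windows of 100, the functional sites with 15 nucleotides on each side and deleted modified nucleotides. Others were named after their values were seen. The members and lists were chosen with earlier results of these data known. Alternatives were the 35S table, hit minimums, other reference sets and window lengths, runs of deleted neighbours given only their highest count, and leaving out repeats or top nucleotides. Sequences came from the table and matched R64 from RefSeq. Values were computed with scipy 1.17.1, numpy 2.4.6 and pandas 2.3.3 in Python 3.11.15, and drawn with matplotlib 3.10.9.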

Additional observations from a re-analysis of the deposited data

How the results depend on the processing

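No paired analysis was possible because the tables hold 1 library of 1 condition. The stretch took 15.2% of the 25S hits, 14.9% in the 35S table, 18.2% by median hits times length and 6.78% with the last 100 nucleotides left out. Of its hits, 59.5% lay in the last 100 nucleotides, 60.9% in the 35S table, 33.6% for the last 50 and 63.7% for the window widened by 50, and 84.6% of its deletions did. Between 4 and 6 nucleotides passed the test under every alternative run, always with the 4 named, and 0 outside the last 100. The lower deletion rate outside the last 100 nucleotides than in nucleotides G1 to C1869 (odds ratio 0.684) became 0.705 with at least 10 hits and 0.699 without the most deleted nucleotide of each set, and missed the threshold in both. The odds ratio at U was 1.02 with the highest count of each run of deleted neighbours placed at its first nucleotide. This setting was chosen after seeing the data and moves the count of the largest run to G3348. The ratio at modified nucleotides was 0 for the ribose-methylated ones alone, which had 0 deletions in 221 hits, and 2.48 for the pseudouridines alone, with 1 in 110. C3364 had a ratio of 0.830 against its flanks (exact test, adjusted p = 1), and C3349 passed in the 35S table with a ratio of 4.14. Outside the last 100 nucleotides, the difference at U missed the threshold with at least 10 hits (exact test, p = 0.130). The other settings run for these results kept direction and side of the threshold. A planned one-sided binomial test against the median rate was not run because the median rate is 0. At a median of 13 hits, rates under 23.1% at 1 nucleotide could not be called.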
